A study of Arabidopsis thaliana with 8 samples.

Results

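The enzymes that turn a plastid fatty acid into the hormone jasmonate were followed through 10 Arabidopsis thaliana genes. They were chosen by name as known steps of the route, with earlier results of these data known. They are 10 of the 32678 genes counted in RNA from whole plants, and all 10 passed the filter on low counts that left 20585 genes for testing. Each of 4 lines gave 1 library at 75 mM NaCl and 1 at 0 mM. T31-5 and T43-11 carried an artificial transcription factor, the 3F-VP16 fusion, which the labels tie to salt tolerance. The empty vector line expressed VP16 alone, a viral activation domain that the fusion lines carried too, and Col-0 was the wild type. The sources used here do not give the age of the plants, the duration of the salt treatment, the promoter of the transgenes, or whether a library pools plants or a line is a single insertion.

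Jasmonate synthesis begins in the plastid, where a 13-lipoxygenase (LOX) adds oxygen to linolenic acid. Allene oxide synthase (AOS) and allene oxide cyclase (AOC) turn the product into 12-oxophytodienoic acid (OPDA), which moves to the peroxisome. There OPDA reductase 3 (OPR3) reduces it, the ligase OPCL1 attaches coenzyme A, and beta-oxidation shortens the chain to jasmonic acid. In Arabidopsis the pathway is known for wound and herbivore defence and for stamen development. Many of its genes are themselves switched on by jasmonate, through the transcription factor MYC2, which binds the G-box CACGTG and its variants.

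The promoters of 4 genes on which the results turn come first, to show which letters they hold. Each is the 250 bases before the annotated gene start, 5′ to 3′ on the gene's strand, from RefSeq assembly TAIR10.1. In the LOX2 promoter (chr3:16524995-16525244, plus strand) the capitals mark the G-box variant CATGTG, read on the other strand, whose outermost base lies 97 bases upstream. In the AOS promoter (chr5:17099596-17099845, minus strand) the capitals mark a G-box that ends at the gene start.
LOX2: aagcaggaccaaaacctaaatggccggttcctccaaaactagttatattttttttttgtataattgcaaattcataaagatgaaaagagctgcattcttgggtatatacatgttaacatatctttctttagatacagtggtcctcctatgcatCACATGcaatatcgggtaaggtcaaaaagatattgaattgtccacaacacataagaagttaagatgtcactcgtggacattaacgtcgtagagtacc
AOS: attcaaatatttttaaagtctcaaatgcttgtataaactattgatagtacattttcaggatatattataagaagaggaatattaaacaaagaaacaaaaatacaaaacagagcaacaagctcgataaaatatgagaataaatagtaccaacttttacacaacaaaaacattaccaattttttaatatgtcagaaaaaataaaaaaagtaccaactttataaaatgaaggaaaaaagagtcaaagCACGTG

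AOC1 (chr3:9403529-9403778, plus strand) and AOC2 (chr3:9406419-9406668, plus strand) are tandem neighbours, and the capitals mark a run of 19 bases that both promoters hold, starting 117 bases upstream of AOC1 and 19 bases upstream of AOC2. It was the longest run shared by any of the 45 pairs of these promoters, the next being 11 bases.
AOC1: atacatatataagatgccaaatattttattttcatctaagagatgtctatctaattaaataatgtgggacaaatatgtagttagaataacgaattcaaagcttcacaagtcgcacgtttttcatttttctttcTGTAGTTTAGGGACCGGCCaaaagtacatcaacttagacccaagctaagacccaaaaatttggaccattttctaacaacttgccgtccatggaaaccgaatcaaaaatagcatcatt
AOC2: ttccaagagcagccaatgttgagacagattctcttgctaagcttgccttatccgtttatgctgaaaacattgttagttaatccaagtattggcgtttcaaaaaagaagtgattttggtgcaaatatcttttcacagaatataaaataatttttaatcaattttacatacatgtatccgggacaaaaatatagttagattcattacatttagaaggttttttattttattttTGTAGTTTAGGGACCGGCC

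Of 27443 Arabidopsis promoters of this length, searched on both strands, 6.49% held CACGTG, and AOS was the only member that did. AACGTG stood in 7.54% of promoters and in those of LOX4 and AOC1, and CATGTG in 11.1% and in those of LOX2, LOX3 and AOC4. The core ACGTG, which lies inside CACGTG and AACGTG, was in 22.9% of promoters and in LOX3, LOX4, AOS and AOC1. The ethylene response motif GCCGCC (1.87% of promoters) was in none of the 10 windows, and the evening element AAAATATCT (2.36%) was in that of LOX3. None of these letters was found in the windows of AOC2, AOC3, OPR3 and OPCL1. These matches describe letters in a window and are not sites of binding.

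Gene reads per library ran from 13007480 in Col-0 at 75 mM to 22820814 in T31-5 at 75 mM, and a member had between 84 and 24177 reads in a library. The T43-11 libraries at 75 and 0 mM were close to each other, with a mean chi-square per gene of 1.42 over 20047 genes, where sampling noise alone gives about 1. T31-5 and the empty vector line at 0 mM were also close, at 1.44. T43-11 at 0 mM was closer to the 75 mM libraries of the other lines (4.56 to 22.5) than to their 0 mM libraries (50.1 to 91.1), and whether it is an unsalted library cannot be told from the tables. The deposited row named T31 had 2.94 CPM (reads scaled to the gene reads of the library) at 75 mM and 4.88 CPM at 0 mM in T31-5, 27.7 and 26.8 CPM in T43-11, 3.12 and 4.44 CPM in the empty vector line, and 0 reads in Col-0. T31-5 and the empty vector line had similar levels of that row, and T31-5 below means the libraries labelled T31-5. For this reason the salt response is given over all 4 lines and without T43-11, and the class comparisons are read with these pairs in mind. The leaf markers RBCS1A, RCA, LHCB1.3, GLDP1 and CA1 were high in every library, with summed levels of 33053 to 55135 CPM, and the 7 root markers had reads in every library, so RNA of both organs was present, as the label whole plant states. Flower markers summed to 3.02 to 20.7 CPM.

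In a fit of 3 lines, salt went with higher levels of LOX2, AOS and 3 of the 4 cyclase genes. The remaining 5 members did not pass. The line with near-equal libraries was left out of this fit, a choice made with earlier results of these data known. With all 4 lines, 0 of the 10 members and 0% of all genes passed the same threshold in edgeR. In T31-5, the empty vector line and Col-0, 5 of the 10 members rose (line as a block, edgeR's quasi-likelihood test, Benjamini-Hochberg adjusted p of 0.05 over all genes), namely LOX2, AOS, AOC2, AOC3 and AOC4, and 0 fell. Over all genes tested, 14.4% rose and 15.4% fell in the same fit. The members had a median log2 fold change of 0.49, against 0.01 for all genes. The same 5 genes stood higher in every 75 mM library than in every 0 mM library of these 3 lines, an order that 23.8% of all tested genes showed. Levels below are CPM scaled by TMM factors (a correction for library composition), and in RNA from whole plants a change in the share of the cells that make a transcript and a change in its amount per cell cannot be told apart. The labels do not say whether the libraries come from separate plantings, so the p-values reflect no more than the spread between these samples, which may be technical.

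**Figure D1:**
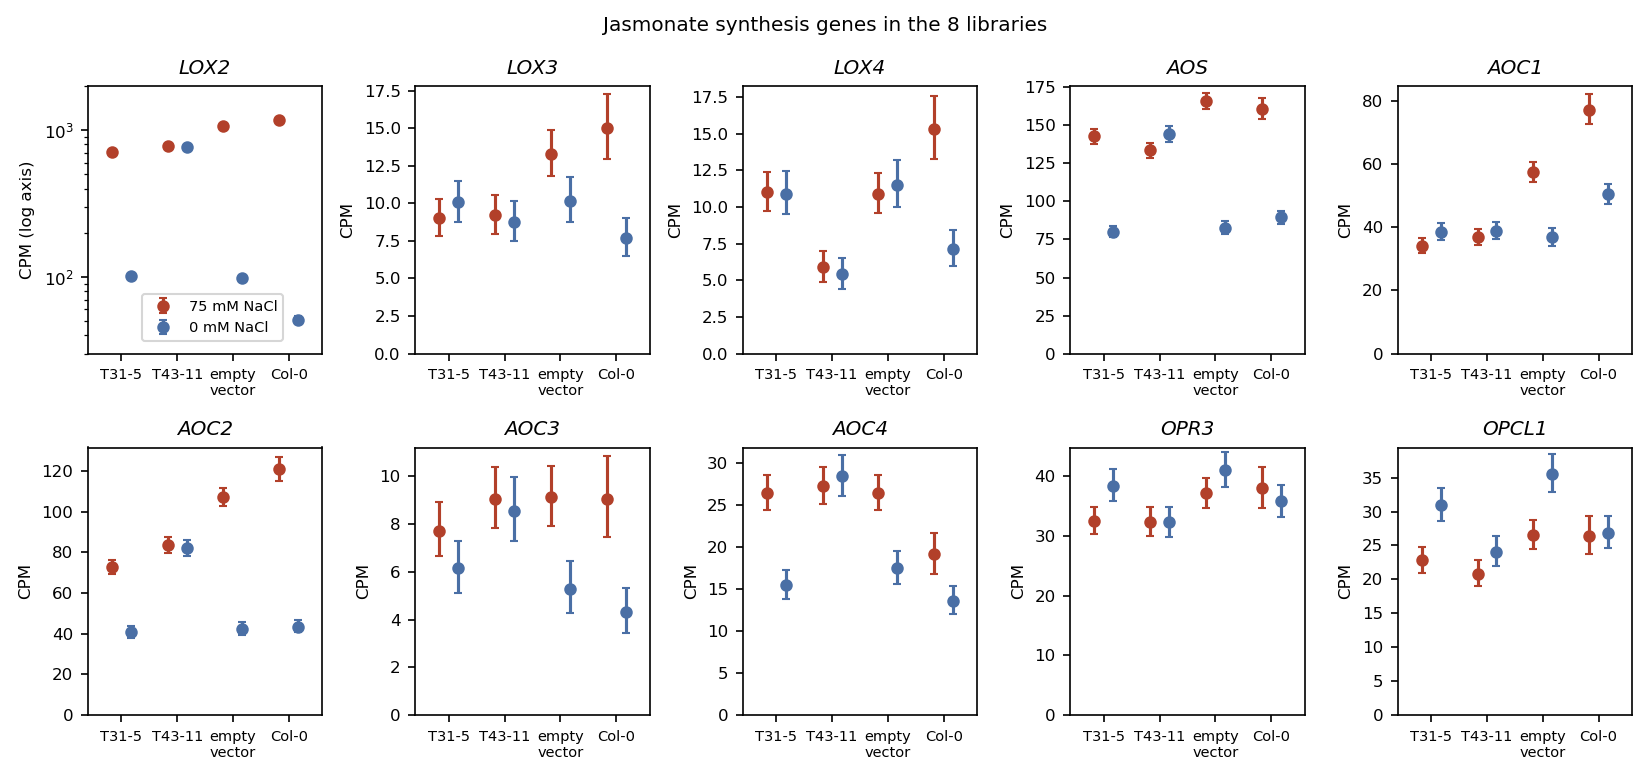
TMM-scaled CPM of each synthesis gene (y axis, from 0 except for LOX2, which has a log axis) in the 4 lines (x axis), with 75 mM NaCl in red on the left and 0 mM in blue on the right of each pair; bars are exact 95% Poisson intervals, which cover counting error only. LOX2, AOS, AOC2, AOC3 and AOC4 are higher at 75 mM in T31-5, the empty vector line and Col-0, while the T43-11 points lie side by side, at 779 and 768 CPM for LOX2.

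LOX2 (AT3G45140), the leaf 13-lipoxygenase that supplies much of the jasmonate made after wounding, had the widest range of the members, 23.4-fold between its highest and lowest library. It stood at 707 CPM at 75 mM, against 101 CPM at 0 mM, in T31-5, at 779 against 768 CPM in T43-11, at 1061 against 98.8 CPM in the empty vector line and at 1181 against 50.5 CPM in Col-0. The 75 mM libraries of T31-5, the empty vector line and Col-0 were thus all far above their 0 mM libraries, and both T43-11 libraries lay among the 75 mM values. The ratio of 75 over 0 mM was 7.01-fold in T31-5, 10.7-fold in the empty vector line and 23.3-fold in Col-0, each 1 library against 1. LOX2 averaged 983 ± 247 CPM at 75 mM and 83.3 ± 28.5 CPM at 0 mM over these 3 lines (SD, n = 3), and its log2 fold change was 3.56 ± 0.42 (SE, edgeR adjusted p = 0.00976). Without the empty vector line the value was 3.66 and missed the threshold (edgeR adjusted p = 0.0911).

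LOX3 (AT1G17420) and LOX4 (AT1G72520), a closely related pair of 13-lipoxygenases needed together for anther development, were low and did not pass. LOX3 stood at 9.01 CPM at 75 mM, against 10.1 CPM at 0 mM, in T31-5, at 9.20 against 8.76 CPM in T43-11, at 13.3 against 10.2 CPM in the empty vector line and at 15.0 against 7.70 CPM in Col-0. LOX4 had 11.0 CPM at 75 mM, against 10.9 CPM at 0 mM, in T31-5, 5.87 against 5.41 CPM in T43-11, 10.9 against 11.5 CPM in the empty vector line and 15.3 against 7.14 CPM in Col-0. For both genes Col-0 held the largest ratio of 75 over 0 mM, 1.93-fold for LOX3 and 2.13-fold for LOX4, and the 75 and 0 mM groups overlapped. Their log2 fold changes were 0.37 ± 0.22 (edgeR adjusted p = 0.267) and 0.30 ± 0.26 (edgeR adjusted p = 0.435), and the value of LOX4 was -0.06 without Col-0. The touch genes TCH2, TCH3 and TCH4, which answer to handling, summed to 408 CPM at 75 mM, against 550 CPM at 0 mM, in T31-5, 416 against 411 CPM in T43-11, 461 against 563 CPM in the empty vector line and 768 against 361 CPM in Col-0. Their sum was higher at 75 mM in Col-0, nearly equal in T43-11 and lower in T31-5 and the empty vector line, and their part in the LOX3 and LOX4 values was not tested.

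AOS (AT5G42650), a plastid cytochrome P450 that commits the hydroperoxide to jasmonate, had the smallest standard error of the members in the fit of T31-5, the empty vector line and Col-0. It stood at 143 CPM at 75 mM, against 80.2 CPM at 0 mM, in T31-5, at 134 against 144 CPM in T43-11, at 166 against 82.7 CPM in the empty vector line and at 161 against 89.6 CPM in Col-0. Outside T43-11 every 75 mM library exceeded every 0 mM library, with ratios between 1.78-fold in T31-5 and 2.005-fold in the empty vector line. The means over the 3 lines were 156 ± 12.1 CPM at 75 mM and 84.2 ± 4.88 CPM at 0 mM (SD, n = 3), and the log2 fold change was 0.88 ± 0.06 (edgeR adjusted p = 0.000547).

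Among the 4 cyclase genes, AOC2 (AT3G25770) moved most. AOC2 had 72.7 CPM at 75 mM, against 40.8 CPM at 0 mM, in T31-5, 83.4 against 82.0 CPM in T43-11, 107 against 42.5 CPM in the empty vector line and 121 against 43.5 CPM in Col-0. Its 0 mM values in T31-5, the empty vector line and Col-0 lay close together, while the 75 mM values of the same lines were spread more widely and all above them. The log2 fold change was 1.199 ± 0.14 (edgeR adjusted p = 0.00377). AOC4 (AT1G13280), on another chromosome, had 26.4 CPM at 75 mM, against 15.4 CPM at 0 mM, in T31-5, 27.2 against 28.4 CPM in T43-11, 26.4 against 17.4 CPM in the empty vector line and 19.1 against 13.6 CPM in Col-0. Its log2 fold change was 0.61 ± 0.08 (edgeR adjusted p = 0.00364), and T31-5 had the largest ratio of the 3 lines, 1.70-fold, unlike the 7 members for which Col-0 had it.

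AOC3 (AT3G25780) was the lowest cyclase gene. Its levels were 7.73 CPM at 75 mM, against 6.15 CPM at 0 mM, in T31-5, 9.06 against 8.56 CPM in T43-11, 9.12 against 5.28 CPM in the empty vector line and 9.05 against 4.31 CPM in Col-0. The groups did not overlap in the 3 lines, and the log2 fold change was 0.70 ± 0.17 (edgeR adjusted p = 0.0271). It missed the threshold without the empty vector line (edgeR adjusted p = 0.156) and when the libraries of T31-5 and of the empty vector line were summed (edgeR adjusted p = 0.0659).

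AOC1 (AT3G25760) differed between the lines. It stood at 34.0 CPM at 75 mM, against 38.5 CPM at 0 mM, in T31-5, at 36.7 against 38.9 CPM in T43-11, at 57.4 against 36.9 CPM in the empty vector line and at 77.2 against 50.4 CPM in Col-0. AOC1 was therefore higher with salt in both control lines, 1.56-fold in the empty vector line and 1.53-fold in Col-0, and in neither 3F-VP16 line. Over T31-5, the empty vector line and Col-0 its log2 fold change was 0.35 ± 0.19 (edgeR adjusted p = 0.238), and without T31-5 it was 0.62 ± 0.10 and passed (edgeR adjusted p = 0.00950). The fit without T31-5 had 1 residual degree of freedom and passed 1467 of 20585 genes as higher.

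The peroxisomal members OPR3 and OPCL1 did not pass. OPR3 (AT2G06050), whose loss makes plants male sterile, had 32.5 CPM at 75 mM, against 38.5 CPM at 0 mM, in T31-5, 32.3 against 32.3 CPM in T43-11, 37.2 against 41.0 CPM in the empty vector line and 38.0 against 35.8 CPM in Col-0. OPCL1 (AT1G20510) had 22.8 CPM at 75 mM, against 30.97 CPM at 0 mM, in T31-5, 20.8 against 24.1 CPM in T43-11, 26.6 against 35.6 CPM in the empty vector line and 26.4 against 26.9 CPM in Col-0. OPR3 overlapped between the salt levels, while every 75 mM value of OPCL1 lay below every 0 mM value of the 3 lines, by a small margin in Col-0. The log2 fold changes were -0.12 ± 0.09 for OPR3 (edgeR adjusted p = 0.335) and -0.32 ± 0.11 for OPCL1 (edgeR adjusted p = 0.0662). Without Col-0 both passed as lower, OPR3 at -0.22 (edgeR adjusted p = 0.0293) and OPCL1 at -0.46 (edgeR adjusted p = 0.00117). That fit passed 4044 of 20585 genes as lower, with 1 residual degree of freedom. It rested on T31-5 and the empty vector line, whose 0 mM libraries were close to each other.

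**Figure D2:**
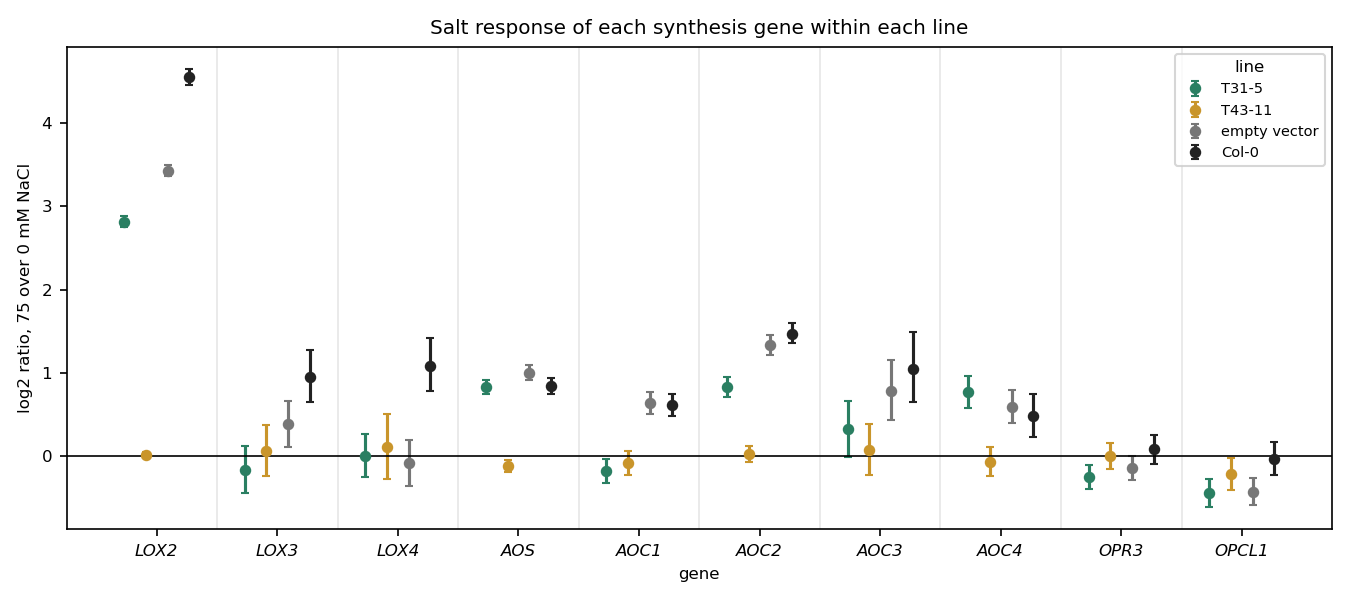
Log2 ratio of 75 over 0 mM NaCl (y axis) for each synthesis gene (x axis) in each line, from scaled CPM with a prior count of 2; bars are exact 95% intervals of counting error, 1 library against 1. For LOX2 the ratios run from 0.02 in T43-11 through 2.81 in T31-5 and 3.42 in the empty vector line to 4.54 in Col-0, and the T43-11 points lie near 0 for every gene.

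The size of the response differed between the lines for most members. Of the 8 members averaging 10 CPM or more, 1 was at least 2-fold higher with salt in T31-5 (LOX2), 0 in T43-11, 3 in the empty vector line (LOX2, AOS and AOC2) and 2 in Col-0 (LOX2 and AOC2). Among the 12067 genes of that level the shares were 1.98% in T31-5, 0% in T43-11, 2.38% in the empty vector line and 3.3% in Col-0. LOX4 and AOC3, which average less, were also at least 2-fold higher in Col-0. Among T31-5, the empty vector line and Col-0, T31-5 had the smallest ratio for 8 members and for 28.9% of all tested genes, and Col-0 the largest for 7 members and for 35.3% of genes. At 75 mM, T31-5 was below Col-0 for 9 members, AOC4 being the exception, and for 48.9% of genes. Each of these is 1 library against 1, so the differences between single lines carry no replicate error.

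Across all 4 lines 0 members and 0% of all genes passed the adjusted p of 0.05 in edgeR. At an unadjusted p under 0.05, 5 members were higher and 1 lower, against 15.2% and 13.9% of all genes. DESeq2 with the same design called 3 members higher, LOX2, AOS and AOC2, where it called 3.76% of all genes higher. The edgeR estimates were 2.80 ± 0.76 for LOX2, 0.92 ± 0.24 for AOC2 and 0.64 ± 0.19 for AOS (log2, edgeR adjusted p = 0.119 for each).

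**Figure D3:**
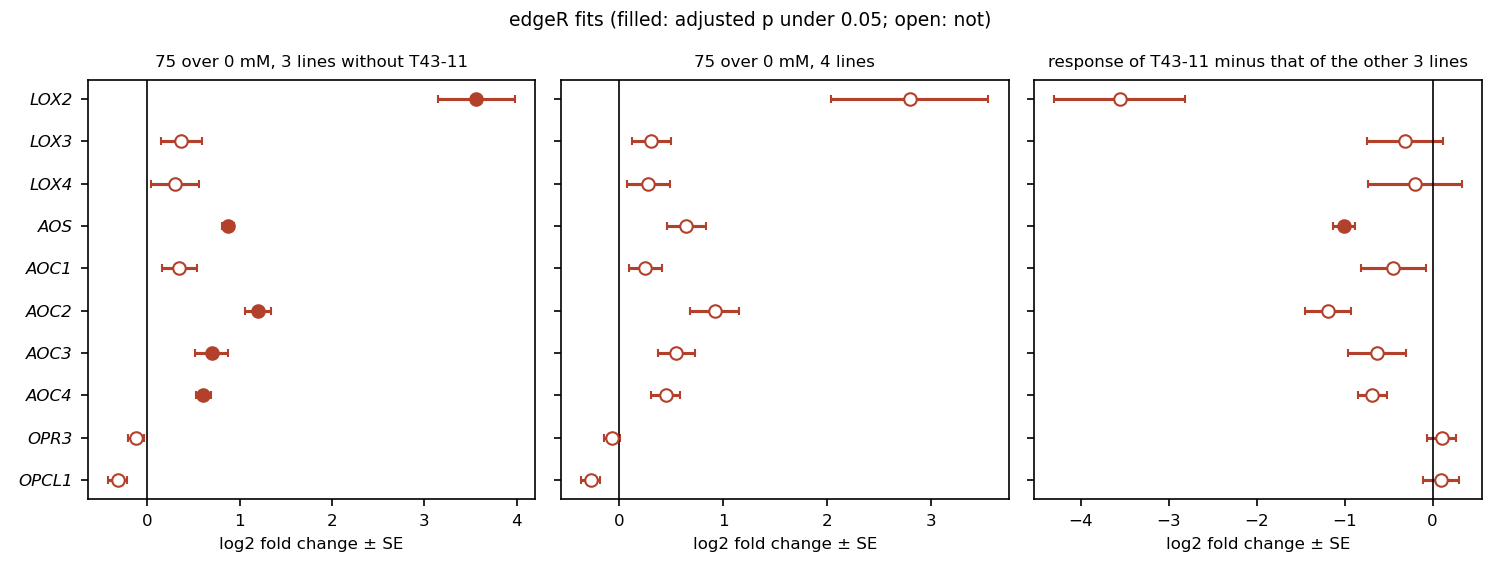
Log2 fold change with its standard error (x axis) of each synthesis gene (y axis) in 3 edgeR fits: salt in T31-5, the empty vector line and Col-0, salt in all 4 lines, and the response of T43-11 minus that of the other 3 lines. Filled points passed an adjusted p of 0.05: 5 genes in the fit of 3 lines, 0 in that of 4 lines, and AOS, at -1.005, in the T43-11 term; the x axes differ in range.

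In both T43-11 libraries LOX2, AOS, AOC2, AOC3 and AOC4 stood near the 75 mM level of the other lines. AOC1 and LOX3 stood near their 0 mM level there, but also near T31-5 at 75 mM, which had 34.0 CPM of AOC1 and 9.01 CPM of LOX3. LOX4 stood below every other library. At 0 mM T43-11 was above all 3 other lines for the first 5 of these genes, as for 42.1% of all tested genes, and below all 3 for LOX4, OPR3 and OPCL1, as for 34.4%, so these counts are near the background. LOX2 in T43-11 at 0 mM was 7.62-fold above the highest other 0 mM library, AOC2 1.88-fold, AOC4 1.63-fold, AOS 1.61-fold and AOC3 1.39-fold. Between its own libraries, 75 mM differed from 0 mM by 1.49% for LOX2, -7.46% for AOS and 1.81% for AOC2. In the test of its salt response against that of the other 3 lines, AOS was the 1 member to pass, with a term of -1.005 ± 0.12 (log2, edgeR adjusted p = 0.0289), and 1.1% of all genes passed as lower. AOC2 at -1.19 ± 0.26, AOC4 at -0.69 ± 0.16 and LOX2 at -3.56 ± 0.74 did not pass (edgeR adjusted p = 0.0933, 0.0944 and 0.118). DESeq2 called 3 members lower, AOS, AOC2 and LOX2, against 1.06% of all genes. T43-11 is a single line, so the spread comes from the other 3 lines, and the AOS term was not called without the empty vector line (edgeR adjusted p = 0.182) or with that line and T31-5 summed (edgeR adjusted p = 0.0905).

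Other marker sums shifted with the same libraries. The leaf markers summed to 33053 to 34454 CPM at 75 mM, against 47041 to 55135 CPM at 0 mM, in T31-5, the empty vector line and Col-0, and to 34548 against 34038 CPM in T43-11. Root markers summed to 1605 to 2273 CPM at 75 mM, against 1246 to 1348 CPM at 0 mM, in those 3 lines, and to 2093 against 2071 CPM in T43-11. PYK10 made up most of this sum, at 1549 to 2216 CPM at 75 mM, against 1190.5 to 1281 CPM at 0 mM, in the 3 lines. PYK10, NRT2.1 and RHD6 passed as higher, as did 14.4% of all genes, NRT2.1 and RHD6 averaging under 5 CPM. Their log2 fold changes were 0.57, 3.22 and 0.98 (edgeR adjusted p = 0.0173, 0.00809 and 0.0353). WOX5 at 1.35 and COBL9 at 0.28 did not pass (edgeR adjusted p = 0.0936 and 0.609). SCR and SHR had lower values at 75 mM in each of these lines and did not pass (log2 fold changes of -0.18 and -0.38, edgeR adjusted p = 0.0818 and 0.0761). The morning clock genes LHY and CCA1 summed to 209 to 241 CPM at 75 mM, against 560 to 815 CPM at 0 mM, in the 3 lines, and to 191 against 193 CPM in T43-11. Evening genes TOC1 and GI summed to 53.5 to 67.7 CPM at 75 mM, against 38.0 to 45.4 CPM at 0 mM, and to 71.9 against 75.1 CPM in T43-11. No source used here gives the hour of harvest, and the part of organ share and of clock phase in the values of the synthesis genes was not tested.

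The 3F-VP16 lines, T31-5 and T43-11, were also set against the control lines, the empty vector line and Col-0, which asks whether the artificial factor goes with a change in the pathway. At 75 mM, 9 of 10 members had a log2 fold change below 0, as had 50.4% of all genes. The median of the members was -0.41, against -0.002 for all genes. In 7 members (LOX2, LOX3, AOS, AOC1, AOC2, OPR3 and OPCL1) both 3F-VP16 lines lay below both control lines, as in 22% of all genes, and in 0 above both, as in 21.2% of genes. However, 0 members and 0% of all genes passed at 75 mM (edgeR quasi-likelihood test). AOC1 at -0.93 ± 0.19 and LOX3 at -0.63 ± 0.17 had an unadjusted p under 0.05 in edgeR (adjusted p = 0.999), as had 1.81% of all genes on the lower side. DESeq2 called AOC1 lower, at -0.93 (adjusted p = 0.0421), among 0.0437% of all genes.

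At 0 mM the class comparison also passed 0 members. Both 3F-VP16 lines exceeded both control lines in 2 members, LOX2 and AOC3, against 17.4% of all genes, and lay below both in 0 members, against 16.7%. For LOX2, T43-11 had 768 CPM, while T31-5 at 101 CPM and the empty vector line at 98.8 CPM had overlapping counting intervals. The intervals of T31-5 and the empty vector line overlapped for AOC3 too, at 6.15 and 5.28 CPM. LOX2 had a log2 fold change of 2.54 ± 0.81 and AOC3 of 0.62 ± 0.21, neither passing (edgeR adjusted p = 0.587 for each). Both genes had an unadjusted p under 0.05 in edgeR, as had 3.21% of all genes on the higher side. The count passing was 0 of 10 members and 0% of all genes in edgeR, and 0 members in DESeq2. The values of AOS, at 0.38, and AOC2, at 0.51, turned to -0.10 and -0.07 without T43-11. Without T31-5, which leaves T43-11 as the lone 3F-VP16 line, the estimate of LOX2 was 3.36.

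The salt response of the 3F-VP16 lines had a lower estimate than that of the control lines for all 10 members, with a median log2 difference of -0.64 against -0.004 for all genes, 50.6% of which were below 0. The largest differences were -2.57 ± 1.07 for LOX2 and -0.98 ± 0.27 for AOC2, followed by -0.76 ± 0.14 for AOC1. The count passing was again 0 of 10 members and 0% of all genes (edgeR), with LOX3, AOC1, AOC2 and AOC3 at an unadjusted p under 0.05, against 2.36% of all genes on the lower side, and 0 members in DESeq2. T43-11 enters this term with a response near 0. Without T43-11 the estimate of AOC4 turned to 0.20. Without T31-5 the estimates were -1.04 for AOS and -1.38 for AOC2, in a fit that has T43-11 as its lone 3F-VP16 line. That fit is the same as the T43-11 term with T31-5 left out, so it is no separate result on the class.

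Set per length, as CPM per kilobase of transcript averaged over the 8 libraries, LOX2 had the highest level at 198, followed by AOS at 61.5, AOC2 at 57.0, AOC1 at 38.8, OPR3 at 22.997, AOC4 at 16.2, OPCL1 at 12.3, AOC3 at 4.46, LOX3 at 3.37 and LOX4 at 3.20. Neighbours in this order overlapped in their ranges over the libraries, as LOX2 (16.8 to 393) and AOS (39.5 to 81.6) did, with 2 exceptions: AOC1 (28.6 to 64.8) lay above OPR3 (20.6 to 26.3), and OPCL1 (9.58 to 16.4) above AOC3 (2.60 to 5.50). LOX2 made up 97.3 to 97.8% of the summed level of LOX2, LOX3 and LOX4 per length at 75 mM, against 77.7 to 83.1% at 0 mM, in T31-5, the empty vector line and Col-0, and 98.1 against 98.2% in T43-11.

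The balance among the cyclase genes shifted in the same way. AOC2 took 51.4 to 52.9% of the summed AOC level per length at 75 mM, against 37.8 to 41.0% at 0 mM, in T31-5, the empty vector line and Col-0, and 53.2 against 51.7% in T43-11. AOC1 took 26.3 to 36.5% at 75 mM, against 38.8 to 47.8% at 0 mM, in the 3 lines and 25.5 against 26.8% in T43-11. The shares of AOC4 were 18.1 against 14.6% in T31-5, 16.8 against 17.3% in T43-11, 12.6 against 16.3% in the empty vector line and 8.01 against 11.5% in Col-0, and so moved in no common direction.

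**Figure D4:**
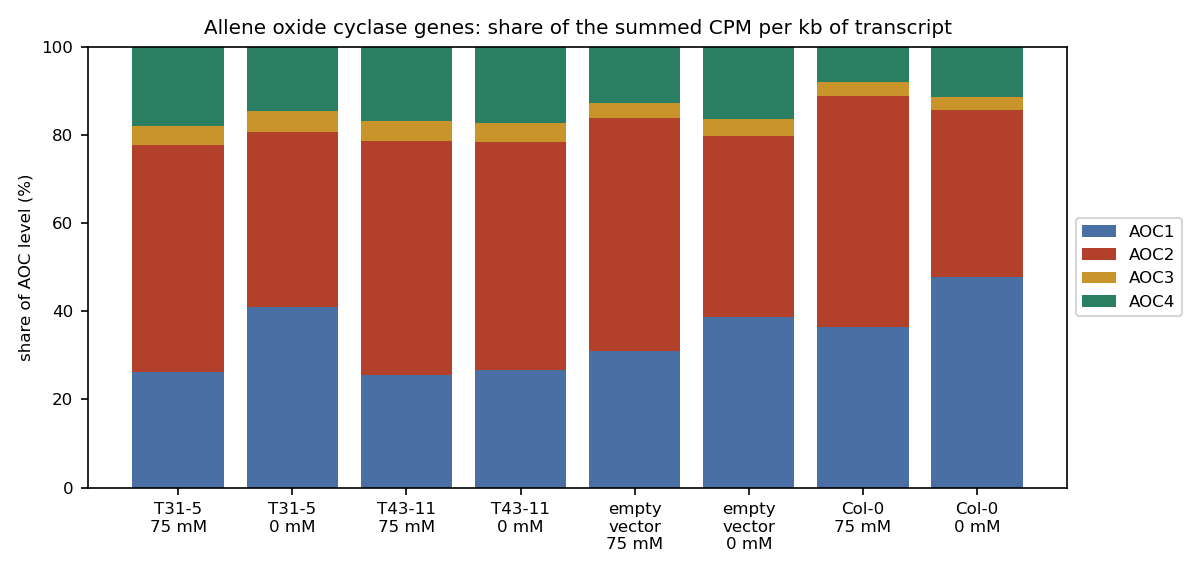
Share of each cyclase gene in the summed AOC level (y axis, percent of CPM per kilobase of transcript) in each library (x axis, 75 mM left of 0 mM within a line). The AOC2 segment is above 51% at 75 mM in every line and at 0 mM in T43-11, and at most 41.0% in the other 0 mM libraries.

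AOC1, AOC2 and AOC3 lie in a row on chromosome 3 with gaps of 1330 and 1088 bases and no annotated gene between them (RefSeq TAIR10.1). The difference in response between them was not tested. The coding sequences of AOC1 and AOC2 were 89.9% identical, those of AOC1 and AOC3 81.5% and those of LOX3 and LOX4 79.7%. AOC1 and AOC2 shared 0 runs of 50 bases in their transcripts, AOC1 and AOC3 shared 24 and AOC2 and AOC3 shared 1, so identical stretches of that length make up at most a small part of these transcripts (2.102% of the runs of AOC1). The deposited summary row for alignments that are not unique held 0 reads in every library. The sources used here do not say whether reads with several matches were removed before counting or counted, and values of these copies are uncertain to that extent. No member overlapped another annotated gene.

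The rest of the pathway, 53 listed jasmonate genes of which 47 were tested, showed 16 genes that rose and 9 that fell with salt in T31-5, the empty vector line and Col-0, where 14.4% and 15.4% of all genes did. Upstream, the desaturase gene FAD3 rose by 0.41 ± 0.11 while the plastid desaturase genes FAD7 and FAD8 changed by -0.37 ± 0.06 and -0.40 ± 0.07 (log2, edgeR adjusted p = 0.0411, 0.00550 and 0.00684). LOX1, a 9-lipoxygenase outside the jasmonate route, rose by 0.84 ± 0.14 (edgeR adjusted p = 0.0111), and the other 3 genes of its list (LOX5, LOX6 and HPL1) did not pass. OPR1, a relative of OPR3 that acts poorly on the jasmonate precursor, fell by 0.76 ± 0.08 (log2, edgeR adjusted p = 0.00151).

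Most listed genes of OPDA transport and beta-oxidation rose. Of these 7 genes 5 rose, 1 fell and 1 did not pass. The 5 that rose were the beta-oxidation genes, which act after OPCL1. KAT2, a thiolase, rose by 0.89 ± 0.10, the multifunctional protein genes AIM1 and MFP2 by 0.86 ± 0.08 and 0.58 ± 0.08, and the acyl-CoA oxidase gene ACX1 by 0.48 ± 0.09 (log2, edgeR adjusted p = 0.00200, 0.000981, 0.00340 and 0.0129). These enzymes also break down other fatty acids. JASSY, a plastid envelope protein that exports OPDA, was at -0.32 ± 0.07 (edgeR adjusted p = 0.0220) and fell.

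Genes that remove or inactivate the hormone moved in both directions. Of 9 tested turnover genes 4 rose and 1 fell. JOX3 and JOX4, oxidases that hydroxylate jasmonic acid, rose by 3.90 ± 0.67 and 3.16 ± 0.54 (log2, edgeR adjusted p = 0.0263 and 0.0186), and the sulfotransferase gene ST2A rose by 1.203 ± 0.31 (edgeR adjusted p = 0.0469). CYP94B3, at 1.85, and CYP94B1, at -1.47, both hydroxylases of the active conjugate, also passed but averaged under 5 CPM, and they are named after their values were seen. JAR1, which makes the active conjugate with isoleucine and was the 1 tested gene of the conjugation and methylation list, had a log2 fold change of 0.11 ± 0.06 (edgeR adjusted p = 0.230) and did not pass.

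Perception genes did not pass, while most listed outputs rose, with a list median of 1.65 on the log2 scale. Of COI1, MYC2, MYC3 and MYC4, the receptor and its transcription factors, 0 passed in edgeR. At an unadjusted p under 0.05 2 were lower, as were 21.3% of all genes, MYC4 at -0.30 ± 0.10 and COI1 at -0.17 ± 0.06 (edgeR adjusted p = 0.0679 and 0.102). Of 12 tested JAZ repressor genes 1 rose and 3 fell, JAZ6 at -0.78 ± 0.06, JAZ9 at -0.44 ± 0.07 and JAZ2 at -0.30 ± 0.07 (edgeR adjusted p = 0.000708, 0.00554 and 0.0188). The riser, JAZ7 at 0.94, averaged under 5 CPM and is named after its value was seen. Of 5 tested output genes 4 rose, the acetyltransferase gene NATA1 at 4.35 ± 0.75, CORI3 at 3.46 ± 0.14 and the vegetative storage protein genes VSP2 and VSP1 at 1.65 ± 0.26 and 1.13 ± 0.15 (log2, edgeR adjusted p = 0.0241, 0.000368, 0.0174 and 0.00380). NATA1 had 0.103 CPM in Col-0 at 0 mM, which is fewer than 3 reads, so the size of its rise is uncertain. The 1 that fell, the defensin gene PDF1.2A at -3.54, averaged under 5 CPM and was at or under 0.155 CPM in both Col-0 libraries. In the T43-11 term CORI3 at -3.50 and AIM1 at -0.86 were lower and JAZ6 at 0.80 was higher (edgeR adjusted p = 0.0231, 0.0446 and 0.0367).

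**Figure D5:**
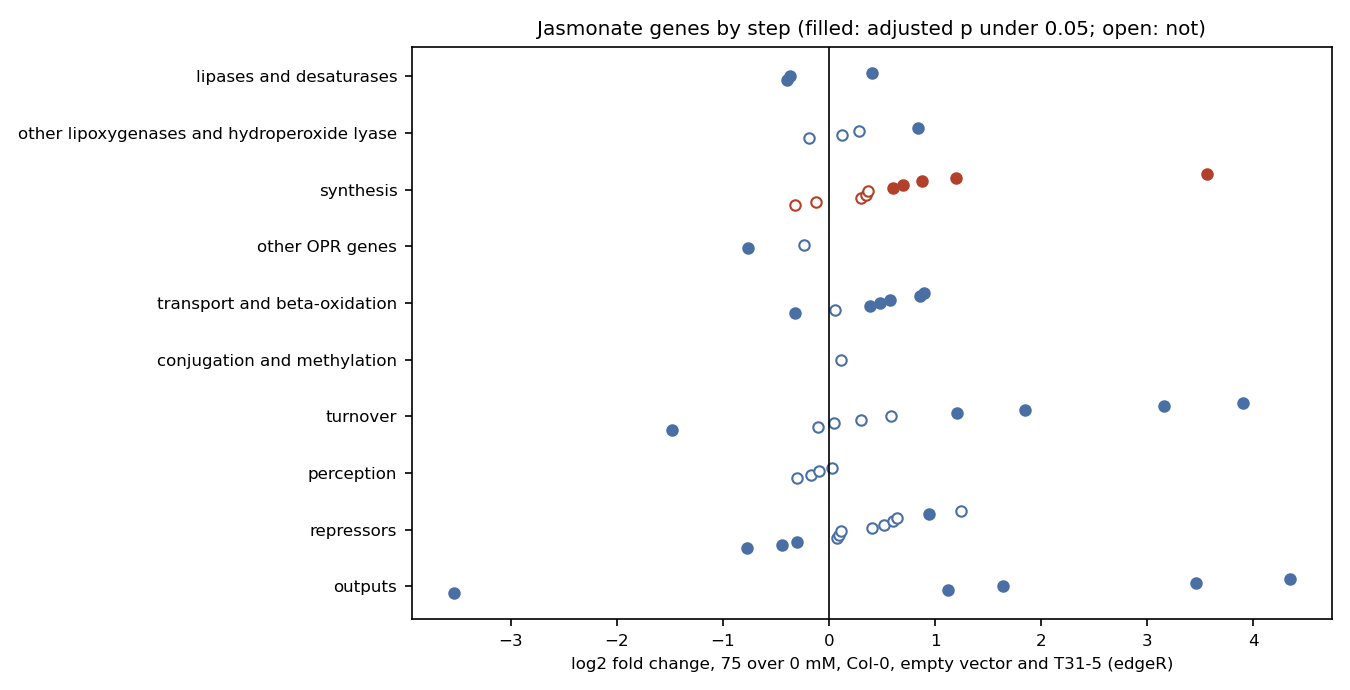
Log2 fold change of 75 over 0 mM NaCl in T31-5, the empty vector line and Col-0 (x axis, edgeR) for the tested jasmonate genes, 1 point a gene, by step of the pathway (y axis); the synthesis genes are red, and filled points passed an adjusted p of 0.05. LOX2 at 3.56 lies among the top turnover and output genes (JOX3 at 3.90, CORI3 at 3.46), while the other synthesis genes lie at or below 1.199.

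The genes most like LOX2 over the 8 libraries were found by the Euclidean distance of log2 CPM centred on each gene's mean, among genes averaging 10 CPM or more. They were BGLU45, a beta-glucosidase (distance 0.705), CORI3 (0.854), the lipid transfer protein gene LTP2 (1.11), the defensin-like gene PDF1.4 (1.11) and JOX3 (1.14), against a length of 4.86 for LOX2's own centred profile. CORI3 stood at 121 CPM at 75 mM, against 14.0 CPM at 0 mM, in T31-5, at 143 against 145 CPM in T43-11, at 171 against 13.9 CPM in the empty vector line and at 186 against 14.2 CPM in Col-0. For AOS, whose own profile had a length of 1.16, the nearest were AT2G47390 (0.203), the glutaredoxin gene GRXC2 (0.242), the lipid transfer protein gene LP1 (0.246), AT2G23330 (0.252) and ELF5A-3 (0.253). This distance depends on the size of a gene's changes as well as on their pattern, so genes with changes of unlike size are far apart by it. Of the 8 members averaging that much, AOC2 had AOS and OPCL1 had OPR3 among its 100 nearest genes, and the other 6 had 0 members there.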

How the data were processed

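RNA from whole plants was measured in 8 libraries, and the authors deposited 1 table of raw read counts per gene for each. Per the submitters' processing notes, TopHat2 2.0.5, HTSeq and the TAIR10 build were used; the sources used here do not give the counting mode, strand use or filters, so overlapping and antisense genes cannot be told apart. The tables' 5 summary rows (2.49 to 2.60% of reads) and the added rows T31 and T43 stayed out of library sizes and tests. Symbols (97.7% of identifiers matched), gene models and promoters came from RefSeq TAIR10.1, by locus tag; the deposited tables carry no coordinates.

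Groups came from the sample titles. Lines served as replicates, and a line's libraries at both salt levels form a pair because they share the line. Tests ran in R 4.3.3 with edgeR 4.0.16 (TMM, robust quasi-likelihood) on 20585 genes reaching 0.468 CPM (10 counts in the median library) in 2 or more libraries, adjusted over all of them by Benjamini-Hochberg, with a threshold of 0.05. Standard errors are the absolute log2 fold change over the square root of F. The salt fits blocked on line and left 3 residual degrees of freedom over 4 lines and 2 without T43-11. The class fit had 4, and both interaction fits had 2. DESeq2 1.42.0, RLE factors, no filter, non-robust fits, no block, single lines left out, and the close libraries of the empty vector line and T31-5 summed were alternatives. The fitting code was tested on simulated data. Single-library ratios used a prior count of 2. Intervals are exact 95% Poisson ones and cover counting error only. Python 3.11.15 with numpy 2.4.6, scipy 1.17.1 and pandas 2.3.3 did the rest.

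The members, the lists of other jasmonate genes, the omission of T43-11 and the T43-11 term were chosen with earlier results of these data known. All members are named. In other lists up to 4 passing genes per direction with a mean of at least 5 CPM are named, or the 2 with the smallest p where none passed. For LOX2 and AOS the 5 nearest genes are named.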

Additional observations from a re-analysis of the deposited data

Results flagged for a closer look

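Of 20 sets of 4 libraries (each member at 75 mM and at 0 mM), 6 had 1 library far from the rest, where chance gives about 1 in 20 for independent sets. These sets share the same 8 libraries, and the share flagged over all genes was not counted, so the 6 cannot be read as an excess in the members. T43-11 at 0 mM lay above the other 3 lines at 0 mM for 42.1% of all tested genes and below them for 34.4%. For 3 genes T43-11 stood far above the other lines at 0 mM, LOX2 at 767.6 CPM, AOS at 144.3 CPM and AOC2 at 81.95 CPM. Col-0 stood apart at 0 mM for AOC1, at 50.37 CPM, and at 75 mM for AOC4, where its 19.1 CPM was the lowest value. T31-5 was the lowest at 75 mM for AOC3, at 7.728 CPM, where the other lines had 9.05 to 9.12 CPM.

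AOS had a T43-11 term in the salt response of -1.005 on the log2 scale (edgeR adjusted p = 0.0289). This rests on 1 line, the term was chosen with the near-equal libraries of that line known, and the call was lost without the empty vector line (edgeR adjusted p = 0.182) and with that line and T31-5 summed (edgeR adjusted p = 0.0905). The added row T31, outside the gene measurements, had reads in the empty vector line, 4.443 CPM at 0 mM, where Col-0 had 0 reads, which allows up to 0.139 CPM at 0 mM (3 reads). The sources used here do not say what this row counts.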

How the results depend on the processing

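RLE factors, no filter on low counts and removal of the line block (no replicate block) kept every count of passing synthesis genes within 1.5 times; without the block the 3-line salt fit passed 5 members and 4977 genes, against 6142 genes with it. Other settings moved counts. DESeq2 passed 3 members and 1791 genes in the 4-line salt fit, 4053 genes in the 3-line fit, 1 member (lower) and 18 genes in the class comparison at 75 mM, 2 genes in the class term of the salt response, and 3 members (lower) in the T43-11 term. Fits without robust estimation passed 327 genes in the T43-11 term, against 500. With T31-5 and the empty vector line summed, the 3-line fit passed 2778 genes and the T43-11 term 0 members and 13 genes.

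Leaving out 1 line at a time, the 4-line fit passed 0 to 5 members as higher and 0 to 6142 genes, the upper values without T43-11. The 3-line fit passed 3 to 6 members as higher, 0 to 2 as lower and 2056 to 7942 genes, fewest without the empty vector line. The class comparison at 0 mM passed 0 to 1 member as higher and 0 to 173 genes, the class term of the salt response 0 to 2 members as lower and 0 to 315 genes, both highest without T31-5. The T43-11 term passed 0 to 3 members as lower and 1 to 2824 genes. Signs turned only for member values that had not passed. LOX4 ran from -0.0117 to 0.41 in the 4-line fit, -0.0607 to 0.52 in the 3-line fit, -0.78 to 0.24 in the class comparison at 0 mM, -1.04 to 0.16 in the class term and -0.42 to 0.18 in the T43-11 term. At 0 mM between classes, LOX3 ran from -0.12 to 0.29, AOS from -0.10 to 0.74, AOC1 from -0.38 to 0.0546, AOC2 from -0.0684 to 0.93, OPR3 from -0.25 to 0.00897 and OPCL1 from -0.38 to 0.0332. In the class term, AOC4 ran from -0.61 to 0.20, OPR3 from -0.23 to 0.0422 and OPCL1 from -0.30 to 0.12. The causes were not tested. Of the member values under alternatives, 467 kept direction and side of the threshold, 20 newly passed, 5 no longer passed and 18 turned. Of the single-library ratios 181 stayed within their counting interval and 19 moved beyond it.

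With 1 library per line and salt level, 2 close pairs of libraries and at most 4 residual degrees of freedom, a missed threshold does not show equal levels. LOX3, LOX4 and AOC3, near 10 CPM or lower, have the widest counting intervals.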

Other observations

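Turnover genes had the lowest median among the lists of at least 4 tested genes in the salt response of the 3F-VP16 lines against that of the control lines. Of 9 tested genes 8 had an estimate below 0, as had 50.6% of all genes, with a median of -0.90 against -0.004 for all genes. In edgeR 0 of them and 0% of all genes passed, and 6 were lower at an unadjusted p under 0.05, against 2.36% of all genes. The list is named here because of its median, and T43-11 enters this term with a response near 0. JOX3 stood at 19.96 CPM at 75 mM, against 3.53 CPM at 0 mM, in T31-5, at 32.5 against 31.3 CPM in T43-11, at 48.2 against 3.78 CPM in the empty vector line and at 91.8 against 1.69 CPM in Col-0. VSP2 had another order of lines, with 126 CPM at 75 mM, against 33.3 CPM at 0 mM, in T31-5, 157 against 152 CPM in T43-11, 137 against 32.3 CPM in the empty vector line and 34.2 against 18.9 CPM in Col-0.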
